A study of Mus musculus with 9 samples.

Results

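The genes described here encode the nuclear pore complex and the nuclear envelope. They are the rows of the deposited table whose symbol is Nup followed by digits, 21 genes, and 19 further genes given by name, from the lamins to the pore proteins Tpr, Pom121 and Ranbp2. The 40 members were found among 19359 genes, and 37 of them passed the filter on low values, at least 1 CPM (read counts scaled to the library total) in at least 3 libraries. The filter left 14876 genes in all.

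The embryos were mouse embryos collected 34 h after fertilization, and each of 9 libraries of poly(A) RNA held a pool of 3 embryos. Each of the 3 groups had 3 libraries, lettered A to C. They were LPN, later pronuclear transfer, EPN, early pronuclear transfer, and SPN, a sham transfer that served as control. In pronuclear transfer the pronuclei are taken out of one zygote and placed in a different one, and the groups differ in whether and when this was done. Eggs came from hormone-stimulated B6D2F1 females of 8 to 12 weeks, in every group. The males are not described, and the protocol shared by all samples also covers cytoplasts made by selective enucleation of oocytes at the germinal vesicle stage, without saying which libraries, if any, used them. Pooling hides differences between embryos, and nothing says that A, B and C came from separate days or matings, so the p-values below reflect the spread among libraries, which may be technical.

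The nuclear pore complex is a ring-shaped channel through the double nuclear membrane that carries proteins in and RNA out of the nucleus. Its scaffold consists of an outer ring, built from the Y complex, and an inner ring. Nucleoporins rich in phenylalanine-glycine repeats fill the central channel, filaments reach into the cytoplasm and a basket reaches into the nucleus. The lamins form a meshwork under the inner nuclear membrane, where proteins such as the lamin B receptor and emerin tie it to chromatin. In the egg and early embryo much of this material is laid down by the mother, and pores and envelope are taken apart and rebuilt at each mitosis.

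Library totals ran from 7611781 to 15559218 reads, so that 1 read equalled 0.0643 to 0.131 CPM, and LPN B was the shallowest. On the first principal component of all tested genes, SPN A (1.96) lay among the EPN libraries (-7.26 to 29.4) and apart from SPN B and SPN C (50.6 and 84.6). Markers of the 2-cell embryo, all 5 present, summed to 3963 to 6333 CPM in LPN, 3293 to 4708 CPM in EPN and 1275 to 2728 CPM in SPN. The 9 oocyte-derived markers summed to 595 to 765 CPM in LPN, 687 to 1143 CPM in EPN and 958 to 1487 CPM in SPN. Both sums separate LPN from SPN without overlap, and their part in the results below was not tested. In whole embryos, fewer cells of a type and less RNA per cell cannot be told apart.

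Every one of the 37 tested members was above 5 CPM in every library, so none passed the filter through a single group. Levels were compared between genes per kilobase of the longest coding transcript in GENCODE M21, an annotation of an older assembly than the authors used. On that scale the tested members ran from 2.21 CPM per kb for Nup188, an inner ring subunit, to 229 CPM per kb for Nup43, a small outer ring subunit. Nup35, the small inner ring subunit that contacts the membrane, came next with 176 CPM per kb. It was followed by Tor1a, an ATPase of the space between the nuclear membranes, with 153 CPM per kb. The basket scaffold Tpr had 83.4 CPM per kb and the channel protein Nup62 had 59.4 CPM per kb. Of the scaffold subunits, Ahctf1 had 33.1 CPM per kb, Nup205 had 9.34 CPM per kb, Nup155 had 7.14 CPM per kb and Nup133 had 4.97 CPM per kb, beside a median of 20.0 CPM per kb over the tested members.

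**Figure D1:**
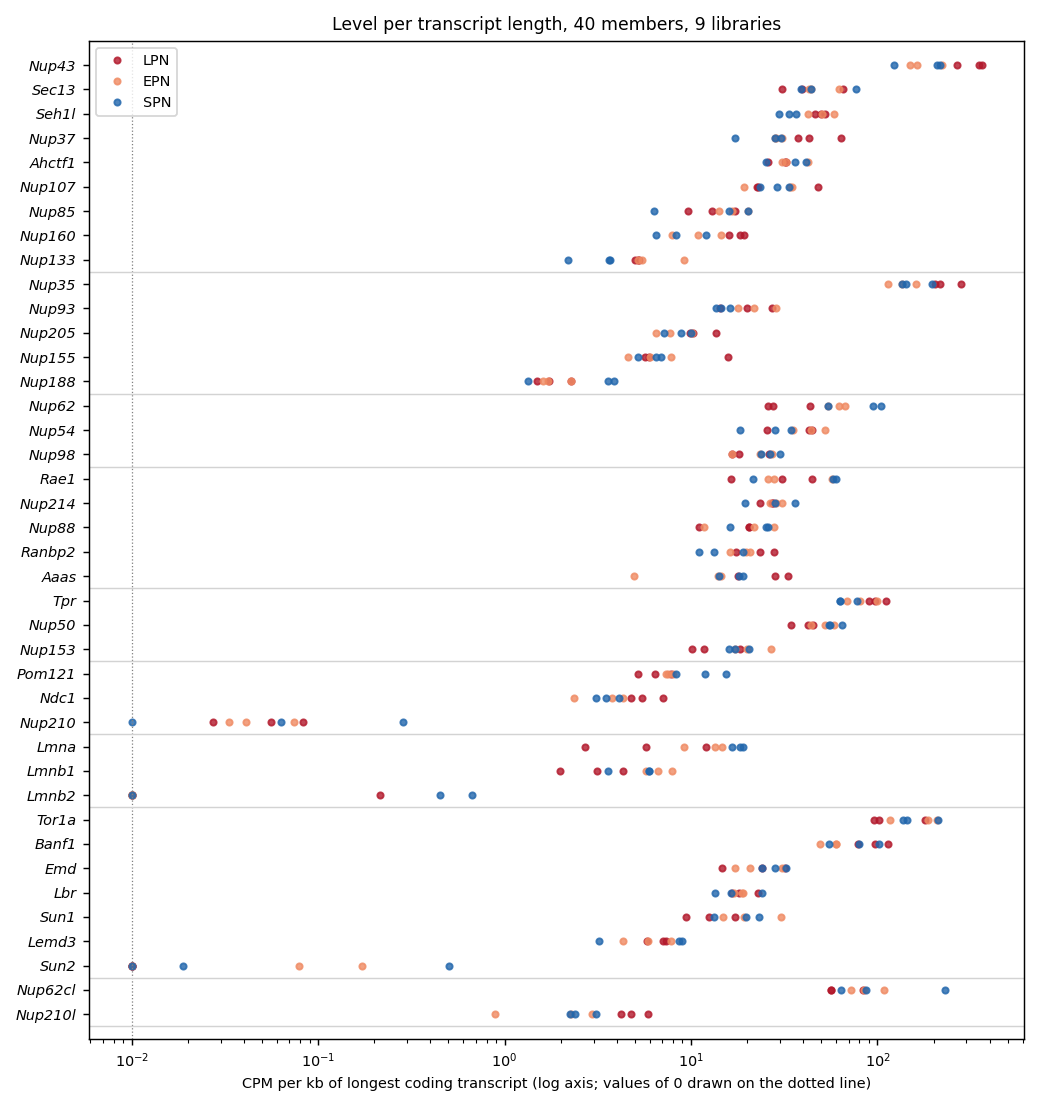
CPM per kb of transcript on a log axis for all 40 members in each of the 9 libraries, with LPN in red, EPN in orange and SPN in blue; members are ordered by level within a sub-complex and values of 0 stand on the dotted line. Nup43, Nup35 and Tor1a stand highest, and Nup210, Lmnb2 and Sun2 stand far below the other members.

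The other 3 members were at or near 0 and were not tested. Nup210, a membrane nucleoporin, had 3 to 7 reads in LPN, 3 to 7 reads in EPN and 0 to 23 reads in SPN. Lmnb2, a B-type lamin, had 9 reads in LPN C and none in LPN A and LPN B, none in EPN, and 0, 18 and 27 reads in SPN A, B and C. Sun2, an inner membrane protein that links lamina and cytoskeleton, had no read in LPN, 0 to 9 reads in EPN and 0 to 22 reads in SPN. A count of 0 allows up to 3 reads, or 0.193 to 0.394 CPM depending on the library, which covers counting error only. SPN C held the highest count of all 3 genes. The related genes Nup210l and Sun1 were both measured, at 18.2 and 73.2 CPM on average over the 9 libraries.

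Later transfer was set against the sham procedure first. Among the members, Nup62 and Lmna fell in LPN, and none rose. The 2 called members were 5.41% of the 37 tested, where 8.8% of all tested genes were called at an adjusted p under 0.05, 3.26% as higher and 5.54% as lower. The members' share was thus no larger than that of genes at large. An unadjusted p under 0.05 was found for 10 members, and for 26.9% of all tested genes. The members' median log2 change was 0.04, beside -0.17 for all tested genes, and 20 members were positive, where 43% of all tested genes were. LPN and SPN libraries did not overlap for 13 of 37 members, or 35.1%, against 27.5% of all tested genes. In 9 of the 13 LPN lay higher (11.3% of all tested genes) and in 4 lower (16.2%). The F test over the 3 groups called the same members, Nup62 (limma adjusted p = 0.0183) and Lmna (0.0477), where it called 5.73% of all tested genes.

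Nup62, the FG-repeat protein at the heart of the central channel, had the smallest p. Its level was 74.8, 70.3 and 118 CPM in LPN A, B and C, 169, 148 and 183 CPM in EPN, and 148, 259 and 285 CPM in SPN. All 3 LPN libraries lay below every EPN and SPN library, and SPN A stood at the level of the EPN libraries. Nup62 averaged 87.6 ± 26.1 CPM in LPN and 231 ± 72.5 CPM in SPN (SD, n = 3 each). It fell 2.59-fold on the log2(CPM + 1) scale (log2 change -1.37, SE 0.31, limma adjusted p = 0.00771). It kept its call with edgeR and DESeq2, and lost it without LPN B (limma adjusted p = 0.0516) and without SPN C (0.0778). The exons of Nup62 share 3.4% of their bases with Il4i1 and 2.87% with Atf5, and these genes were at most at 1.73 and 0.525 CPM in any library.

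The 250 bases before the annotated start of Nup62 are shown because it is the pore gene that fell. The sequence is from RefSeq on GRCm38.p6, plus strand, chr7:44815838-44816087, with capitals for matches to the motifs searched: NRF1 (GCGCA, any base, GCGC) 20 bases before the start, CCAAT, read on the other strand at one place, at 90 and 242 bases, and the SP motif GGGCGG, read on the other strand, at 79 bases.
Nup62: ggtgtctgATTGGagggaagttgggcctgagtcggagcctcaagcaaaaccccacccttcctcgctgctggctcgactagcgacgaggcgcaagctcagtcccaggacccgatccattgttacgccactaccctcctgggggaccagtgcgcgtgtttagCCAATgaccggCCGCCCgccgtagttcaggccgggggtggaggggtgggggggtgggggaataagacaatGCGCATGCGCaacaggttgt

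Lmna encodes the A-type lamins, which stiffen the nuclear lamina of differentiated cells and which the egg supplies to the early embryo. It had 18.2, 8.54 and 38.0 CPM in LPN A, B and C, 46.5, 28.9 and 42.4 CPM in EPN, and 57.8, 52.6 and 59.8 CPM in SPN. LPN lay below SPN in every library, LPN C lay inside the EPN range, and EPN also lay below SPN throughout. The mean was 21.6 ± 15 CPM in LPN and 56.8 ± 3.72 CPM in SPN (SD, n = 3 each). It fell 2.99-fold (log2 change -1.58, SE 0.42, limma adjusted p = 0.0208). LPN B, the library with the lowest value, rested on 65 reads, and without it the log2 change was -1.08 (limma adjusted p = 0.151). The call also ended without LPN A (0.0543), SPN B (0.0521) or SPN C (0.102), with no filter on low values (0.0618), and with edgeR (adjusted p = 0.0835).

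Lmna is expressed in most somatic cells. Markers of cumulus and granulosa cells, 6 of 9 of which had a row, summed to 26.1 to 36.4 CPM in LPN, 21.8 to 49.8 CPM in EPN and 29.3 to 40.5 CPM in SPN, with Foxl2 at 0 in every library. These ranges overlap. The 2 blood markers with a row, of 5, summed to 9.32 to 26.1 CPM in LPN, 33.9 to 79.8 CPM in EPN and 36.0 to 100.4 CPM in SPN, most of it Hba-a1, and LPN lay below SPN there as well. The 4 sperm markers with a row, of 5, summed to 3.55 to 6.62 CPM in LPN, 1.80 to 6.95 CPM in EPN and 6.02 to 12.3 CPM in SPN. The part of the blood and sperm markers in the Lmna result was not tested.

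Lmna has 2 annotated starts, and the 250 bases before each are given for comparison with Nup62. They are from RefSeq on GRCm38.p6, minus strand. Upstream of the outer start, chr3:88503353-88503602, the capitals mark an SP motif, read on the other strand, 52 bases before the start. Upstream of the inner start, chr3:88493313-88493562, they mark CCAAT at 131 bases and the ETS motif CCGGAAG at 88 bases. Neither window holds the NRF1 motif found before Nup62.
Lmna outer: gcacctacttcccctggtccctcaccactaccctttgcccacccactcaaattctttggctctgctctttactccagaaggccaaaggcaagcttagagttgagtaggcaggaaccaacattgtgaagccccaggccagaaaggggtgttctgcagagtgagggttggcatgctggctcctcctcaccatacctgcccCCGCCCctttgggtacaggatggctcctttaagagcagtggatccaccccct
Lmna inner: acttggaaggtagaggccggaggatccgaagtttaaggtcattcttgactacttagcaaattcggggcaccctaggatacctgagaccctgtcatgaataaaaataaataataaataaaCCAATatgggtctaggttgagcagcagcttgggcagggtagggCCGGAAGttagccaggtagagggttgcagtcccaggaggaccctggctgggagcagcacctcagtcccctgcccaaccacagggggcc

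Promoter windows were found for 34 of the 40 members, and not for Nup35, Nup43, Nup210l, Lmnb1, Seh1l and Nup85. Counting a gene once over its windows and reading both strands, CCAAT lay in 17 of the 34 members (50%) and in 37.5% of all 27025 genes with a window. GGGCGG lay in 24 members (70.6%) and in 35.4% of all genes. CCGGAAG lay in 8 members (23.5%) and in 7.83% of all genes, and the NRF1 motif in Nup62, Nup50 and Nup107 (8.82%) and in 4.23% of all genes. The motifs E2F (TTTCCCGC), CRE (TGACGTCA), YY1 (AAGATGGC) and OTX-like (TAATCC) lay in 2 members each (5.88%), against 1.03%, 1.77%, 1.83% and 7.21% of all genes in that order. TATAAA lay in 4 members (11.8%) and in 14.3% of all genes. The member windows were richer in G and C, with a median of 62.8% against 52.4% for all windows, and the part of base composition in the motif shares was not tested. The 27025 genes were counted whether or not they passed the filter on low values, and the part of that was not tested either. A match is a run of letters and not a binding site.

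**Figure D2:**
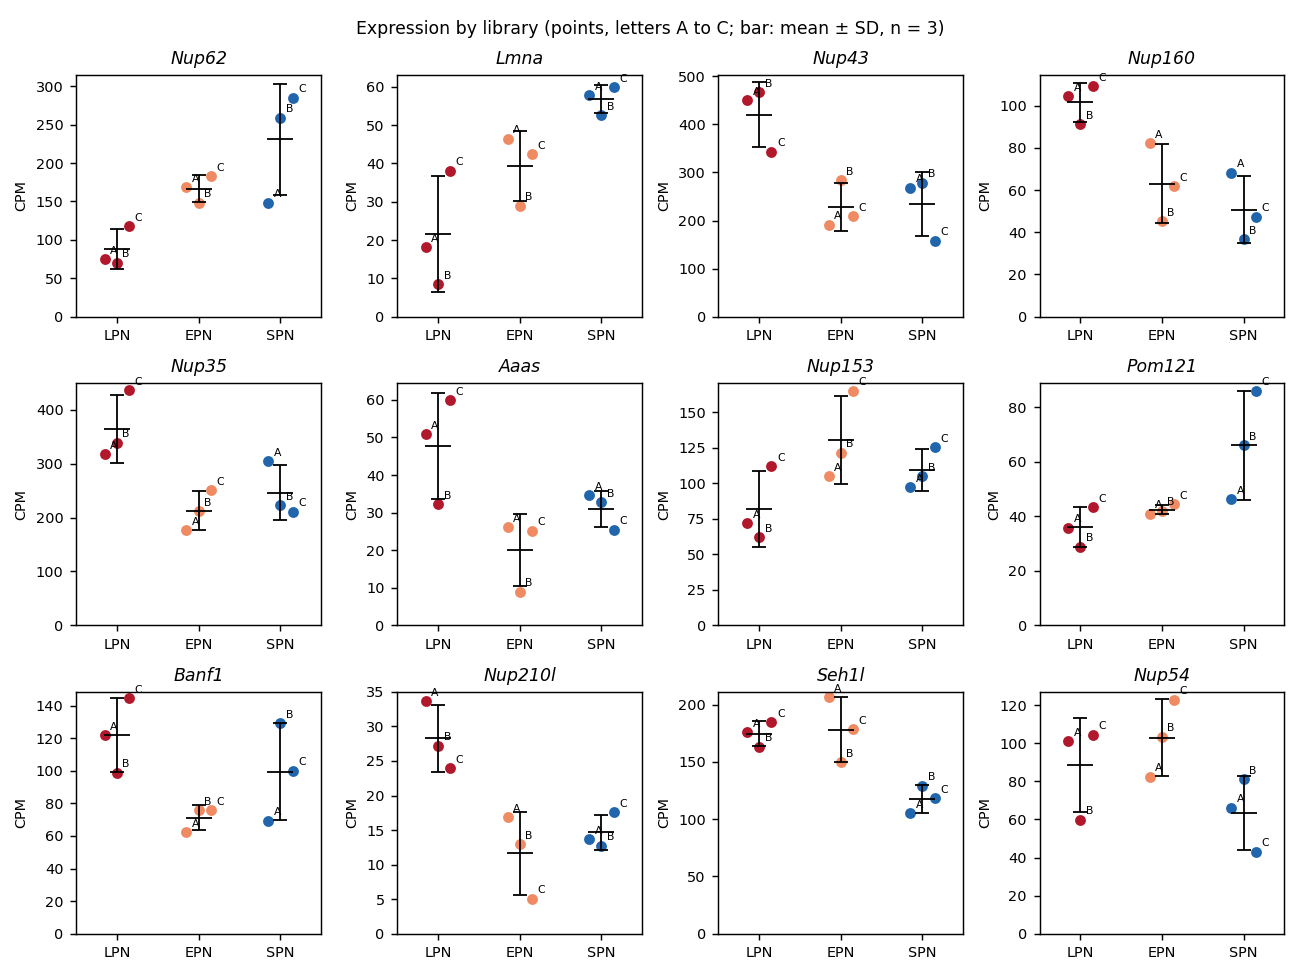
CPM (linear axis from 0) in each library of LPN, EPN and SPN for 12 members, with points lettered A to C and the mean ± SD of 3 libraries. Nup62 is lower in all 3 LPN libraries than in any other, Lmna is lower in LPN than in SPN, and Nup43 and Nup160 are higher in LPN than in either other group.

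In the central channel Nup62 works in a complex with Nup54 and Nup58. Nup54 had 101, 59.9 and 105 CPM in LPN, 82.5, 103 and 123 CPM in EPN, and 66.3, 81.1 and 43.0 CPM in SPN (LPN against SPN log2 change 0.48, limma adjusted p = 0.365). Nup58 stands in the table under its older symbol Nupl1, outside the rule for members. It had 16.6, 23.1 and 21.2 CPM in LPN, 24.7, 25.3 and 16.6 CPM in EPN, and 26.0, 57.0 and 85.3 CPM in SPN. The LPN and EPN libraries of Nupl1 all lay below SPN, where SPN A was closest to them, and no difference passed (log2 change -1.28 for LPN against SPN and -1.17 for EPN against SPN, limma adjusted p = 0.054 and 0.297). Nup98, the channel FG protein that is also made as a precursor of the scaffold protein Nup96, averaged 136 ± 34.9 CPM in LPN and 179 ± 20.8 CPM in SPN (SD, n = 3 each; limma adjusted p = 0.374).

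The outer ring leaned the other way without any member passing. Of its 9 members 7 had a positive log2 change in LPN against SPN, with a median of 0.57 beside -0.17 for all genes. With median-of-ratios scaling 8 were positive, Ahctf1 having changed sign, and the median was 0.75. Nup98, which also gives the scaffold protein Nup96, was counted in the central channel and not here (log2 change -0.42). In LPN against EPN 4 of the 9 outer ring members were positive, with a median of -0.02, and 5 with median-of-ratios scaling, with a median of 0.11. In 5 of the 9 every LPN library lay above every SPN library, as in 11.3% of all tested genes, and these were Nup160, Nup43, Nup37, Seh1l and Nup133. They are scaffold subunits of the Y complex that also sit at kinetochores in mitosis.

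Nup160, the subunit at the branch of the Y, had 104, 91.2 and 109 CPM in LPN, 82.3, 45.2 and 61.9 CPM in EPN, and 68.1, 36.8 and 47.4 CPM in SPN. Its LPN libraries lay above all others, and it missed the threshold narrowly (log2 change 1.03, SE 0.34, limma adjusted p = 0.0508). Nup43 had 450, 467 and 343 CPM in LPN, 192, 284 and 209 CPM in EPN, and 268, 278 and 158 CPM in SPN. LPN lay above both other groups throughout (LPN against SPN log2 change 0.87, SE 0.29, limma adjusted p = 0.0529). Both passed with DESeq2, with median-of-ratios scaling, with a mean of at least 5 CPM as filter and without SPN A, and neither passed with edgeR. DESeq2 called 6 of 37 members, adding Nup37 and Seh1l to these and to Nup62 and Lmna, where it called 12.3% of all tested genes.

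Nup37 had 54.9, 81.7 and 47.7 CPM in LPN, 36.6, 39.3 and 36.0 CPM in EPN, and 36.0, 22.1 and 38.7 CPM in SPN (LPN against SPN log2 change 0.91, limma adjusted p = 0.105). The remaining outer ring genes lay closer together. Nup107 (log2 change 0.04), Nup85 (0.02), the chromatin-bound initiator of pore assembly Ahctf1 (-0.16) and Sec13 (-0.24), which also serves in the COPII coat, had overlapping LPN and SPN libraries.

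Seh1l and Nup133 were the outer ring members that stood apart in both transfer groups. Seh1l had 176, 163 and 185 CPM in LPN, 206, 150 and 178 CPM in EPN, and 105, 129 and 118 CPM in SPN. Nup133 had 30.1, 30.5 and 29.1 CPM in LPN, 31.8, 30.1 and 53.2 CPM in EPN, and 12.8, 21.3 and 21.1 CPM in SPN. For both genes all 6 transfer libraries lay above all SPN libraries, although no difference passed over all genes. The log2 changes of Seh1l were 0.57 in LPN and 0.59 in EPN against SPN (limma adjusted p = 0.189 and 0.437), and those of Nup133 were 0.71 and 1.01 (limma adjusted p = 0.259 and 0.346). Both comparisons share their SPN libraries. Exons of Seh1l overlap an antisense gene over 3.06% of their bases and those of Nup133 over 6.56%, and the counting is not stated to use strand.

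**Figure D3:**
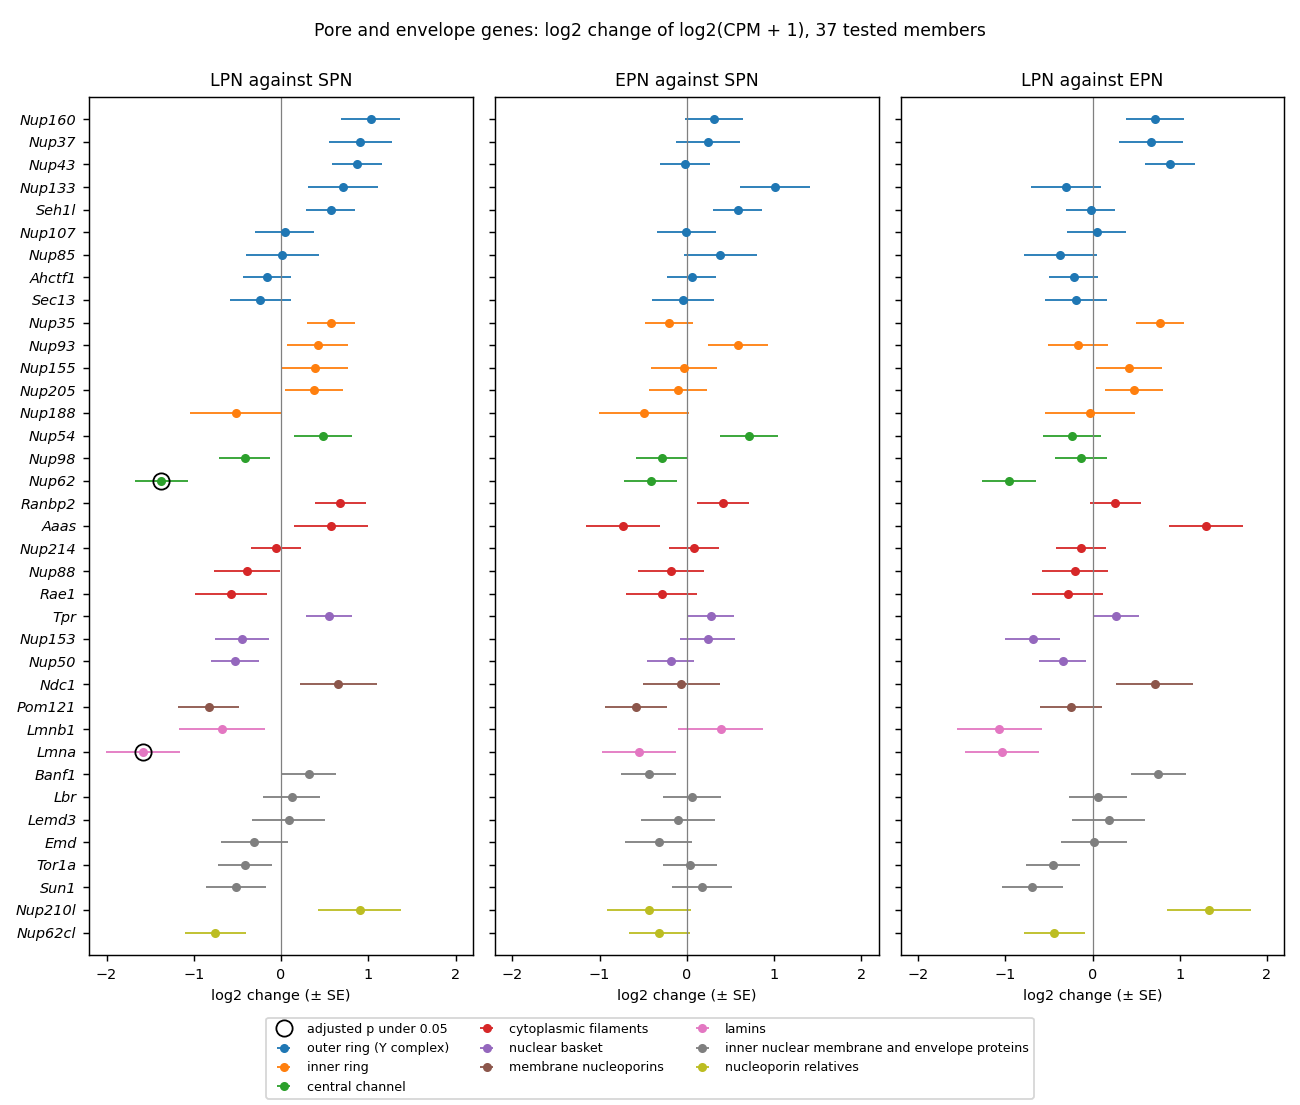
Log2 change ± SE of the 37 tested members in LPN against SPN, EPN against SPN and LPN against EPN, coloured by sub-complex; black rings mark an adjusted p under 0.05. Rings stand only on Nup62 and Lmna in LPN against SPN, and 7 of the 9 outer ring genes lie to the right of 0 there.

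Of the 5 inner ring genes 4 had positive log2 changes in LPN against SPN (median 0.39) and none passed. Nup35 had 318, 339 and 437 CPM in LPN, 176, 212 and 250 CPM in EPN, and 304, 223 and 211 CPM in SPN. Its LPN libraries lay above all others, with SPN A just under LPN A (LPN against SPN log2 change 0.57, limma adjusted p = 0.179). Nup93, the linker of the inner ring, had 58.1, 41.8 and 79.8 CPM in LPN, 83.4, 64.0 and 52.1 CPM in EPN, and 42.5, 39.7 and 47.3 CPM in SPN. Nup155 reached 123 CPM in LPN C and lay between 36.1 and 61.3 CPM in the other 8 libraries. The exception to the direction was Nup188, with 8.55 to 13.0 CPM in LPN, 9.22 to 13.0 CPM in EPN and 7.66 to 22.1 CPM in SPN (LPN against SPN log2 change -0.52, limma adjusted p = 0.547).

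The filament and basket genes were mixed. Ranbp2, the giant SUMO ligase of the cytoplasmic filaments, averaged 221 ± 50.3 CPM in LPN, 181 ± 22.2 CPM in EPN and 139 ± 39.5 CPM in SPN (SD, n = 3 each; LPN against SPN limma adjusted p = 0.131). Rae1 averaged 53.3 ± 24.7 CPM in LPN and 81.0 ± 37.6 CPM in SPN, Nup88 averaged 42.5 ± 13.3 and 54.9 ± 13.0 CPM, and Nup214 averaged 172 ± 14.8 and 184 ± 54.4 CPM, in the same order of groups. The sign of Nup214 turned positive with 3 other scalings, with log2 changes of 0.03 to 0.13 against -0.05.

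In the basket Tpr had 674, 722 and 834 CPM in LPN, 600, 512 and 747 CPM in EPN, and 582, 469 and 474 CPM in SPN, with LPN above SPN throughout (log2 change 0.55, limma adjusted p = 0.172). Nup50 went the other way, with 216, 163 and 201 CPM in LPN, 249, 209 and 279 CPM in EPN, and 261, 265 and 309 CPM in SPN (log2 change -0.53, limma adjusted p = 0.206). Nup153, the basket protein that anchors Tpr, had 71.7, 61.7 and 112 CPM in LPN, 105, 122 and 165 CPM in EPN, and 97.2, 105 and 125 CPM in SPN. Only LPN C of the LPN libraries lay within the range of the other groups (LPN against EPN log2 change -0.69, limma adjusted p = 0.225).

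Of the membrane nucleoporins, Pom121 had 35.9, 28.9 and 43.4 CPM in LPN, 41.0, 42.0 and 44.5 CPM in EPN, and 46.2, 66.1 and 86.1 CPM in SPN. All 6 transfer libraries lay below SPN, SPN A being nearest to them (LPN against SPN log2 change -0.83, limma adjusted p = 0.125; 0.0317 without SPN A). Its exons share 11.9% of their bases with Nsun5 on the opposite strand. Ndc1, which is needed to insert pores into the membrane, had 24.9, 21.9 and 32.5 CPM in LPN, 19.8, 17.3 and 10.8 CPM in EPN, and 14.3, 15.9 and 18.8 CPM in SPN. LPN lay above both other groups (LPN against SPN log2 change 0.65, limma adjusted p = 0.349).

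The B-type lamin Lmnb1 had 5.66, 8.93 and 12.3 CPM in LPN, 22.5, 16.4 and 18.8 CPM in EPN, and 10.2, 17.0 and 16.9 CPM in SPN. LPN lay below EPN in every library and overlapped SPN through SPN A (LPN against EPN log2 change -1.07, SE 0.49, limma adjusted p = 0.229). Both tested lamin genes had negative log2 changes in LPN against SPN, also with median-of-ratios scaling, edgeR and DESeq2.

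Among the 6 tested envelope proteins, LPN and SPN libraries overlapped for every gene. Banf1, the small protein that crosslinks chromatin when the envelope reforms, had 122, 98.9 and 144 CPM in LPN, 62.3, 75.7 and 75.7 CPM in EPN, and 69.3, 129 and 100 CPM in SPN. LPN lay above EPN throughout (log2 change 0.75, limma adjusted p = 0.184), and SPN overlapped both. Its exons share 28.6% of their bases with Eif1ad on the opposite strand. Sun1, the inner membrane anchor of the LINC complex, averaged 53.8 ± 16.5 CPM in LPN, 88.6 ± 32.7 CPM in EPN and 77.1 ± 20.7 CPM in SPN (SD, n = 3 each). Tor1a averaged 176 ± 65.7, 238 ± 66.0 and 230 ± 58.3 CPM in LPN, EPN and SPN. The lamin B receptor gene Lbr (log2 change 0.12 in LPN against SPN), the LEM-domain gene Lemd3 (0.09) and the emerin gene Emd (-0.31) differed by less than their SE. Exons of Emd share 13.6% of their bases with a processed pseudogene.

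Of the relatives of pore genes, Nup210l had 33.6, 27.2 and 24.0 CPM in LPN, 16.8, 13.0 and 5.09 CPM in EPN, and 13.7, 12.8 and 17.6 CPM in SPN. LPN lay above both other groups (LPN against EPN log2 change 1.33, SE 0.48, limma adjusted p = 0.124). Nup62cl, a relative of Nup62, had 112, 167 and 113 CPM in LPN, 169, 216 and 145 CPM in EPN, and 462, 127 and 172 CPM in SPN. SPN A alone set its SPN mean apart, and without SPN A the log2 change of LPN against SPN was -0.21 instead of -0.75.

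Early transfer set against the sham procedure gave no call. By limma 0 of 37 members passed, where 0.108% of all tested genes did, 0.0739% as higher and 0.0336% as lower. An unadjusted p under 0.05 was found for 3 members, against 11% of all tested genes. The 3 were Nup133, Nup54 and Seh1l, all with positive log2 changes. EdgeR and DESeq2 also called 0 members, and their shares of all tested genes are not given here. EPN and SPN libraries did not overlap for 6 members, against 14.6% of all tested genes. EPN lay above SPN for Nup133, Nup54, Seh1l and Nup93 (7.07% of all tested genes) and below it for Pom121 and Lmna (7.56%). The median log2 change of the members was -0.03, beside -0.07 for all genes, and turned to 0.02 with median-of-ratios scaling. Positive log2 changes were found for 16 of 37 members, against 45.5% of all tested genes, and for 20 with that scaling. Sub-complex medians ran from -0.37 for the relatives of pore genes to 0.24 for the outer ring and the basket.

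Later and early transfer were compared directly, which tests the difference between the transfer groups. By limma 0 of 37 members passed, where 1.53% of all tested genes did, 0.692% as higher and 0.84% as lower. An unadjusted p under 0.05 was found for 10 members, against 19.3% of all tested genes, and 16 of 37 had a positive log2 change, against 43.3%. EdgeR called 0 members, and also a smaller share of all tested genes than limma, given below with the partner genes. DESeq2 called 6, with Aaas, Nup43, Banf1, Nup35 and Nup210l higher and Nup62 lower in LPN, where it called 6.22% of all genes. The libraries of the groups did not overlap for 10 members (27%), against 26.6% of all tested genes, with LPN higher in 8 (11.3% of all tested genes) and lower in 2 (15.3%). Aaas, a filament protein near the membrane, had 50.8, 32.2 and 60.0 CPM in LPN, 26.1, 8.91 and 25.2 CPM in EPN, and 34.6, 32.8 and 25.5 CPM in SPN. LPN lay above EPN and overlapped SPN through LPN B (LPN against EPN log2 change 1.30, SE 0.42, limma adjusted p = 0.0946). For Nup62 the log2 change was -0.96 (SE 0.31, limma adjusted p = 0.0917) and for Nup43 it was 0.88 (SE 0.29, limma adjusted p = 0.0934).

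**Figure D4:**
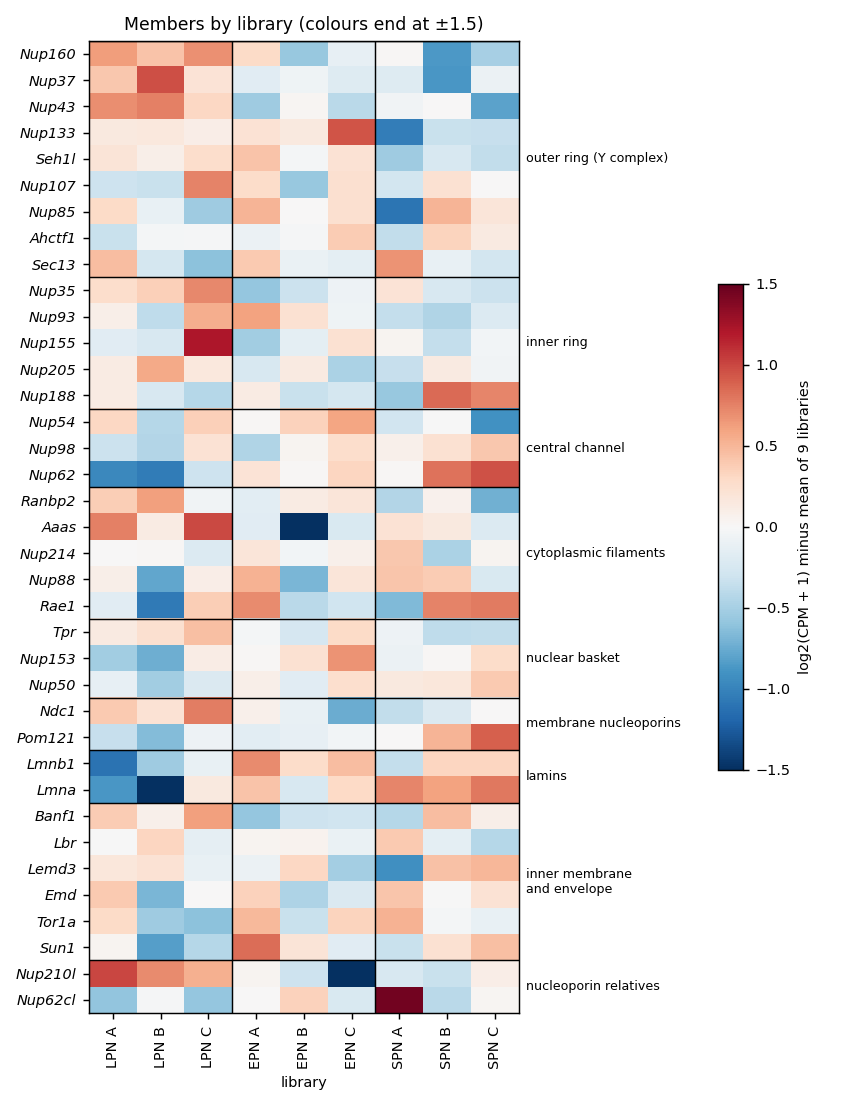
Log2(CPM + 1) of each tested member minus its mean over the 9 libraries, with columns from LPN through EPN to SPN and rows grouped by sub-complex (red above the mean, blue below, colours ending at 1.5 either way). The 3 LPN columns are red for Nup160, Nup37 and Nup43 and mostly blue for Nup62 and the lamins, while single libraries stand out for Nup155 (LPN C), Aaas (EPN B), Nup210l (EPN C) and Nup62cl (SPN A).

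Taken over the tested members as a description, the first principal component held 39.2% of their variance. It placed the LPN libraries at -2.22, -3.36 and -1.19 for A, B and C, the EPN libraries between 0.23 and 1.19, and SPN A, B and C at 0.37, 1.78 and 2.09. SPN A thus again stood within the EPN range. Summed over the 28 genes of the pore sub-complexes, CPM was 3740 ± 268.7 in LPN, 3410 ± 323 in EPN and 3289 ± 83.8 in SPN (SD, n = 3 each). For the 10 lamin and envelope genes the sums were 519.7 ± 91.7 CPM in LPN, 586 ± 98.1 CPM in EPN and 621 ± 19.4 CPM in SPN. Abundant genes weigh most in such sums. Tpr alone averaged 743 CPM in LPN and 508 CPM in SPN, and the lamins gave 72.8 CPM of the SPN mean. In LPN against SPN 16 tested pore genes had positive and 11 negative log2 changes, and 3 and 5 of the lamin and envelope genes did. Between transcript length and log2 change in LPN against SPN, Spearman's rho was 0.04 among the 37 members. Over 13004 tested genes with a length it was -0.22. Genes share the same 9 libraries, so these are descriptions, and whether the members differ from other genes in this was not tested.

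Partner genes of the pore and envelope, 48 in 5 lists, were read in the same fit, where 47 were tested. In LPN against SPN 1 rose and 2 fell, 6.38% beside 8.8% of all genes. Xpo1, the exportin that carries proteins with nuclear export signals, rose to 754 ± 57.2 CPM in LPN, against 426 ± 55.7 CPM in SPN (SD, n = 3 each; log2 change 0.83, limma adjusted p = 0.0409). Lpin2, a phosphatidate phosphatase, fell to 27.5 ± 4.34 CPM in LPN, against 69.9 ± 26.3 CPM in SPN (log2 change -1.25, limma adjusted p = 0.0388). The list of envelope sealing and reassembly genes had 1 of 13 members called, that of Ran cycle and carrier genes 1 of 7, and those of LINC and inner membrane genes and of lamin processing genes 0 of 10 tested and 0 of 5.

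The calls of the partners named here were fragile. In LPN against SPN edgeR called 0 of 47 partners, where it called 3.21% of all tested genes, and DESeq2 called 9, where it called 12.3%. An unadjusted p under 0.05 by limma was found for 17 partners, and for 26.9% of all tested genes. The calls of Xpo1 and Lpin2 ended when LPN A, LPN B, LPN C, EPN C, SPN B or SPN C was left out, and that of Xpo1 also without EPN A or EPN B, with limma adjusted p of up to 0.181 for Xpo1 and 0.21 for Lpin2. In LPN against EPN the LINC protein gene Syne2, which spans the outer nuclear membrane, fell to 45.3 ± 10.6 CPM in LPN, against 113 ± 30.0 CPM in EPN (SD, n = 3 each; log2 change -1.29, limma adjusted p = 0.0393). It was the only partner called there by limma, where 1.53% of all tested genes were called. EdgeR called 0 partners and DESeq2 7 (0.114% and 6.22% of all tested genes). The call of Syne2 ended without LPN A, LPN B, EPN A, EPN B or EPN C (limma adjusted p of up to 0.23). In EPN against SPN 0 of 47 partners passed by limma, edgeR or DESeq2, where limma called 0.108% of all tested genes. An unadjusted p under 0.05 by limma was found for 5 partners there, and for 11% of all tested genes.

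**Figure D5:**
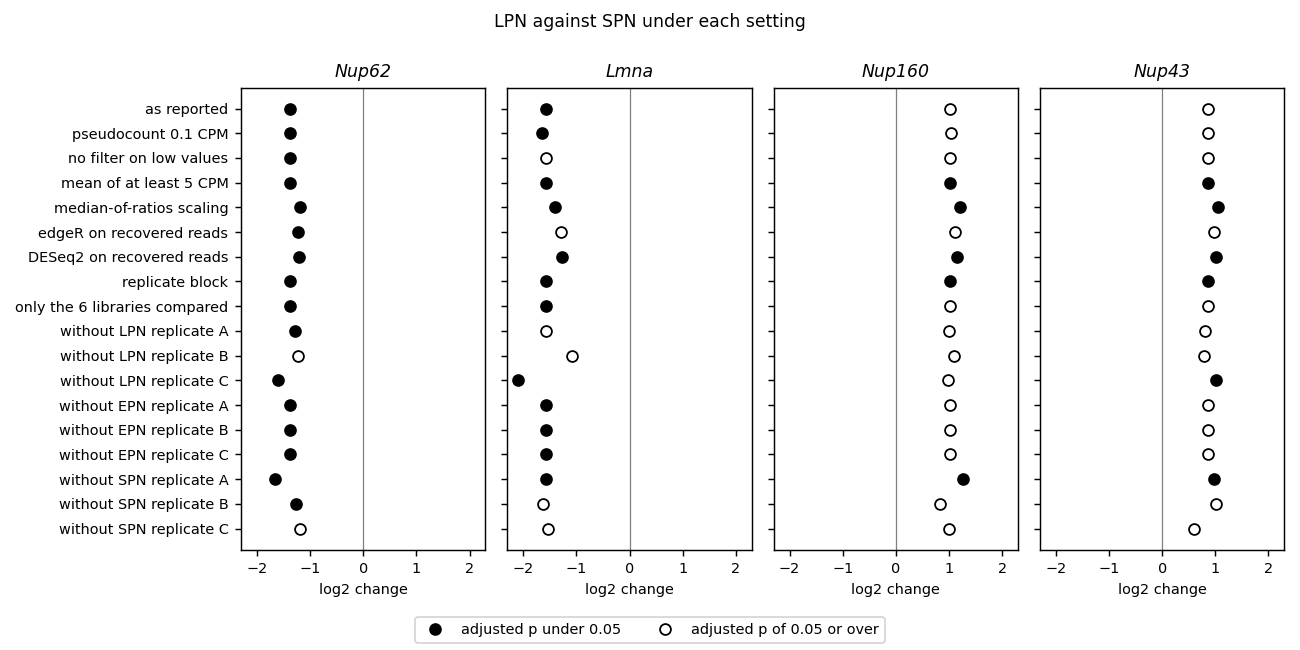
Log2 change of Nup62, Lmna, Nup160 and Nup43 in LPN against SPN under each setting, filled where the adjusted p was under 0.05. Nup62 and Lmna stay left of 0 and Nup160 and Nup43 right of 0 under all 18 settings drawn, and Nup62 is filled in all but 2 of them. These members had the smallest p in this comparison. A changed filter, the letter as a block, the 6 libraries alone or an EPN library left out cannot move the points.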

How the data were processed

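Poly(A) RNA of 9 libraries was sequenced after Smart-seq2 v4 amplification and Nextera XT preparation, with 150-bp paired ends, per the labels' protocols. The submitters' processing notes name edgeR, HISAT2 2.2.1, Trim Galore 0.6.7, R 3.3.3 and the build GRCm39. The read counter and the annotation are not given in the sources used here. CPM per gene were deposited by the authors, whose steps gave back whole reads for 100% of values (tolerance 0.01 reads).

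Genes reaching 1 CPM in 3 or more libraries were taken as log2(CPM + 1) and fitted in one limma 3.58.1 model (R 4.3.3, trend, 6 residual degrees of freedom, two-sided). P-values were adjusted by Benjamini-Hochberg over 14876 genes, with a call at an adjusted p under 0.05. Fold changes on this scale understate low genes. Alternatives were a pseudocount of 0.1 CPM, no filter, a mean of at least 5 CPM, median-of-ratios scaling, edgeR 4.0.16 and DESeq2 1.42.0 on the recovered reads, leaving out each library, the 6 libraries compared alone, and the letter as a block. The model was tested on simulated data. The members and lists were chosen with earlier results of these data known. By rule, values per library are given for called members and, in sub-complexes without a call, for the member with the smallest F test p; those of other members were added after their values were seen. Of the partner genes the called ones are named, except 1 that is not reported here. Symbols are as deposited; promoter sequences are RefSeq's on GRCm38.p6.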

Additional observations from a re-analysis of the deposited data

How the results depend on the processing

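Among 27 log2 changes of members and partners recomputed under each of 17 alternatives, none reversed, while calls came and went. The 27 had been chosen from these data, members by an unadjusted p under 0.05 and partners by a call, which made a reversal unlikely. A changed filter, the letter as a block, the 6 libraries alone, or leaving out a library outside the comparison cannot change a log2 change. Of members near 0, Nup214 and Ahctf1 changed sign in LPN against SPN with median-of-ratios scaling. With that scaling Nup155, Nup43, Nup107 and Sec13 did so in EPN against SPN, and Nup188 and Seh1l in LPN against EPN. The 2 members called in LPN against SPN became 1 with no filter on low values (2.57% of all tested genes called), 4 with a mean of at least 5 CPM (16.8%), 4 with median-of-ratios scaling (8.1%), 1 with edgeR (3.21%), 6 with DESeq2 (12.3%), and 0 to 6 when single libraries were left out. The count was 0 without LPN B (2.2%) or SPN C (0.849%), 1 without LPN A (4.12%) or SPN B (3.11%), and 6 without SPN A (18.9%). The 0 members of EPN against SPN, where 0.108% of all tested genes were called, stayed at 0 under every alternative. In LPN against EPN the count of 0 became 6 with DESeq2 (6.22% of all tested genes), 2 in a fit of the 6 libraries alone (Nup43 and Nup62; 3.93%), and 0 to 3 with single libraries left out, the 3 without SPN A (5.41%). The F test over the 3 groups called 2 members, Nup62 and Lmna. It called 1 with a pseudocount of 0.1 CPM (3.67% of all tested genes), 0 with no filter, 1 with median-of-ratios scaling (4.97%) and 0 with edgeR (0.739%). DESeq2 used a likelihood-ratio test over the 3 groups instead, which called 8 members (11.5%). The F test called 0 to 5 members without single libraries. The 5 were found without SPN A, where 17.6% of all tested genes were called, and 0 without LPN A, LPN B, SPN B or SPN C. With no filter 0 of 19189 genes passed that test.

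The labels do not say whether the letters A, B and C pair the libraries. Deviations from group means correlated at -0.02 to 0.09 between libraries of the same letter. Of the 6 libraries in a comparison, the number that correlated best with their own letter was 6 in LPN against EPN. It was 3 in LPN against SPN and 2 in EPN against SPN, so pairing by letter is not settled. With the replicate block, 4 members were called in LPN against SPN (Nup160 and Nup43 higher; 11.1% of all tested genes called), 0 in EPN against SPN, 0 in LPN against EPN and 3 by the F test (8.44%). The median log2 change of all genes in LPN against SPN, -0.17, became -0.03 with median-of-ratios scaling, and that of the members, 0.04, became 0.22. LPN B, the shallowest library, held 68 reads of Lmnb1.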
